A study of Mus musculus with 2 samples.

Results

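The genes followed were 10 imprinted genes, most of which act on growth, namely *Igf2*, *H19*, *Dlk1*, *Meg3*, *Peg3*, *Cdkn1c*, *Grb10*, *Plagl1*, *Mest* and *Snrpn*. They were picked by symbol out of the 33207 genes counted, by a rule that uses no measured value, and all 10 had a row in both libraries. The set itself was chosen with earlier results of these data known. The libraries came from mouse embryos carrying 1 *Egr2-Cre* allele (*Egr2* is also called *Krox20*) and a *Rosa26* Tomato reporter, so that cells which had expressed *Egr2*, and their descendants, were labelled. Tomato-positive cells sorted from the meninges, dorsal root ganglia and nerve roots were profiled with 10x single-cell RNA sequencing, and the labels name the cells boundary cap cells, the neural crest derivatives at the nerve exit points. Each stage, E11.5 and E12.5, had 1 library from 1 pooled litter, so stage, litter and library cannot be told apart and no test between stages was possible. All cells of both libraries carry the same Cre and reporter alleles, and no wild-type cells were analysed here.

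In imprinted genes, a methylation mark set in the germ line leaves the copy from only one parent active. *Igf2*, *Dlk1*, *Peg3*, *Plagl1*, *Mest* and *Snrpn* are transcribed mainly from the paternal copy, and *H19*, *Meg3*, *Cdkn1c* and, outside neurons, *Grb10* from the maternal one. Many of them set the size of the embryo and placenta, and a group of them is known to be expressed together in embryonic tissues and to decline after birth. The counts here do not separate the parental copies.

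After filters on mitochondrial share, depth and doublet score, 833 of 1431 barcodes with 9541971 UMIs (unique molecular identifiers, 1 for each captured transcript) were left in the E11.5 library and 3496 of 3762 with 22456846 UMIs in the E12.5 library, with medians of 11601 and 6140 UMIs per cell. Among barcodes of kept cells, 7 occurred in both libraries. Cells were put in classes by a gate. Sox10-positive glia held *Sox10* and no *Isl1* UMI (413 cells in the earlier library and 1213 in the later one), and Isl1-positive neurons held *Isl1* and no *Sox10* UMI (203 and 1337 cells). Non-neural cells held neither, with at least 3 markers of 1 mesenchymal, pericyte, endothelial, myeloid or erythroid list (57 and 229 cells). Double-positive cells (104 and 286) and unclassified cells (56 and 431) were set aside. The 10 glia and 10 neuron markers, which include the gate genes themselves, followed the gate. Glia markers came to 3833 and 6502 CPM (defined in the next paragraph) in Sox10-positive cells against 319 and 412 in Isl1-positive cells, and neuron markers to 398 and 436 against 10317 and 12242. The non-neural class differed in makeup, with 50 of 57 cells nearest the pericyte list at E11.5, and 156 of 229 nearest the mesenchymal, 31 the myeloid and 30 the pericyte list at E12.5. Few Isl1-positive cells (4 of 203 and 17 of 1337) and Sox10-positive cells (0 of 413 and 13 of 1213) fell into clusters made up mainly of non-neural cells. Values without them are given for some of the results. Other Isl1-positive cells fell into clusters named by the glia markers (glia-like clusters), and these were kept in the class.

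A level is given in CPM, the gene's UMIs summed over the cells of a class, divided by all UMIs of that class and multiplied by 1000000, with an exact 95% Poisson interval. Pairs of values are given for E11.5 and then E12.5. A ratio of 2 levels has an exact conditional binomial interval. Both intervals cover counting error only, since cells of 1 library are not replicates, and no p-value can be given. A gene counted as higher or lower when its ratio was past 2-fold and it had at least 100 UMIs in both classes together. Free RNA from broken cells can add UMIs to all classes. *Hbb-y*, an embryonic globin gene of red blood cells, was at 12.4 and 8.05 CPM in Sox10-positive cells.

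In the GRCm39 annotation (GENCODE M39) the genes lie on chromosomes 6, 7, 10, 11 and 12. *H19* (chr7:142129262-142133957, minus strand) and *Igf2* (chr7:142204503-142220694, minus) are neighbours on distal chromosome 7, where *Cdkn1c* (chr7:143012069-143014806, minus) also lies. *Peg3* (chr7:6706882-6733468, minus) and *Snrpn* (chr7:59630427-59820763, minus) are elsewhere on the same chromosome. *Dlk1* (chr12:109418749-109429262, plus) and *Meg3* (chr12:109506877-109538165, plus) are neighbours on chromosome 12, and *Mest* (chr6:30723546-30752058, plus), *Plagl1* (chr10:12936248-13007438, plus) and *Grb10* (chr11:11880498-11988683, minus) have no other member on their chromosome. *H19* and *Meg3* are annotated as long non-coding RNAs and the other 8 as protein-coding.

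Of the members, *H19*, *Meg3*, *Mest* and *Igf2* host microRNAs in the annotation. The hairpin of miR-675 lies in an exon of *H19* (chr7:142130801-142130884), that of miR-770 in an exon of *Meg3* (chr12:109530126-109530219), that of miR-335 in an intron of *Mest* (chr6:30741298-30741395) and that of miR-483 in an intron of *Igf2*. The mature sequences of the 3 hosts with counts high enough to follow are shown, from RefSeq (table of build GRCm38.p6), with bases 2 to 8, the seed that pairs with targets, in capitals. The microRNAs themselves were not measured.
mmu-miR-675-5p: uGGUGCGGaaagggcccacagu
mmu-miR-675-3p: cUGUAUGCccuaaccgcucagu
mmu-miR-770-5p: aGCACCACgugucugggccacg
mmu-miR-770-3p: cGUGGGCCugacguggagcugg
mmu-miR-335-5p: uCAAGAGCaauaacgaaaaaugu
mmu-miR-335-3p: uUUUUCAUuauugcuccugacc
No 2 of these 6 share a seed.

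The sequences upstream of 3 starts are shown as examples that hold a motif of imprinted regions: those of *Plagl1*, which was higher in neurons than in glia, and of *Mest* and *H19*, which were lower. Members without the motif also differed between neurons and glia. Each is the 250 bases before the start of the canonical transcript, read from GRCm39, with the letters TGCCGC (or GCGGCA, the other strand) in capitals. TGCCGC is the sequence known to be bound, when methylated, by ZFP57, a zinc-finger protein that maintains imprints.
Plagl1 (GRCm39 chr10:12966159-12966408, plus strand): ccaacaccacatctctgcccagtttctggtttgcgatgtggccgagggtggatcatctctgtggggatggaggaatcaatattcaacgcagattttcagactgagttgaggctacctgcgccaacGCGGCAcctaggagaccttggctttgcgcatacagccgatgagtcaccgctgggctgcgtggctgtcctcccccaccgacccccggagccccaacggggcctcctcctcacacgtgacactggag
Mest (GRCm39 chr6:30737794-30738043, plus strand): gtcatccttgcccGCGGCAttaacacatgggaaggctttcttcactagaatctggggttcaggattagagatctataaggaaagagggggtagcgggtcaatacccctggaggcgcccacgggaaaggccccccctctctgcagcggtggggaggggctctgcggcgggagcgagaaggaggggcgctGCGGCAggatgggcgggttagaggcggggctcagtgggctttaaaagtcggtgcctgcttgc
H19 (GRCm39 chr7:142133958-142134207, minus strand): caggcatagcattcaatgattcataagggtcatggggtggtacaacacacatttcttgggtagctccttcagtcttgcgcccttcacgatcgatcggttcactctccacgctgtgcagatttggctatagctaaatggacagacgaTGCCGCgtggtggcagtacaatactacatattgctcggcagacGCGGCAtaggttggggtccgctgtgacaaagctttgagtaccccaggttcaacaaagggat
In windows from 250 bases before to 50 after the start, TGCCGC on either strand occurred in 6 of the 10 members (*H19*, *Meg3*, *Grb10*, *Plagl1*, *Mest* and *Snrpn*, but not *Igf2*, *Dlk1*, *Peg3* or *Cdkn1c*) and in 10.5% of the windows of 32512 genes. A CpG observed-over-expected value of 0.6 or more was found in 8 of the 10 members and in 35.0% of all windows. These matches describe letters only.

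The growth factor of the set, *Igf2*, was all but uncounted, with 7 UMIs in the E11.5 library and 20 in the E12.5 library before the filters. Of the kept cells, Sox10-positive glia held 3 and 4 of its UMIs, Isl1-positive neurons 0 and 2, and non-neural cells 4 and 12, where 57 and 229 cells were summed. The count of 0 among 2328701 UMIs of E11.5 neurons allows a level of up to 1.29 CPM by the limit of 3 counts, and the upper end of the exact Poisson interval is 1.58 CPM. In the annotation, the last 500 exonic bases of *Igf2*, where 3′ counting reads fall, are shared in full with *Gm49394*, a protein-coding model on the same strand that had 0 UMIs in both libraries. Reads that match several genes are commonly not counted. Across protein-coding genes with a fully shared end, 85.1% of 322 had fewer than 100 UMIs, against 46.8% of 21054 with none of it shared. The 322 take in overlapping models of the kind of *Gm49394*, and the groups were not matched for kind or expression of gene. These shares therefore cannot tell what sharing did to *Igf2*. With its end shared, the counts of *Igf2* cannot be read as its level, and the part of the shared end was not tested. The end of *Snrpn* is shared for 95.6% of these bases with *Gm38393* (11 and 42 UMIs), and what that did to its counts was not tested.

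*Cdkn1c* encodes p57Kip2, an inhibitor of cyclin-dependent kinases that takes cells out of the cycle. Its level in Sox10-positive glia was 104 CPM (95.2 to 113) at E11.5 and 123 (115 to 131) at E12.5. In Isl1-positive neurons it was 1207 (1162 to 1252) and 1348 (1324 to 1372), and in non-neural cells 750 (677 to 829) and 1020 (968 to 1074). Among these classes neurons were thus highest at both stages and glia lowest, with no overlap of the intervals. This order holds for the pooled non-neural class. At E12.5 its 156 mesenchymal-list cells were at 1348 (1272 to 1427), level with neurons, and its 31 myeloid-list cells at 8.02.

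*Plagl1* encodes ZAC1, a zinc-finger transcription factor that acts on other imprinted genes. It was at 4.54 (2.88 to 6.82) and 4.47 (3.11 to 6.22) in glia, at 46.8 (38.4 to 56.5) and 40.1 (36.1 to 44.5) in neurons and at 70.3 (49.2 to 97.3) and 58.0 (46.2 to 71.9) in non-neural cells. Glia were lowest at both stages. Their levels lay under those of *Hbb-y* in the same cells (12.4 and 8.05), and the part of free RNA in them was not tested. The intervals of neurons and non-neural cells overlapped at E11.5 and did not at E12.5.

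*Mest*, which encodes an enzyme of the alpha/beta-hydrolase fold and is a marker of embryonic mesoderm, had the reverse order for glia and neurons. It was at 1041 (1013 to 1069) and 1016 (994 to 1039) in glia and at 79.9 (68.8 to 92.2) and 54.6 (49.9 to 59.6) in neurons. Non-neural cells had 1812 (1698 to 1933) and 927 (878 to 978), so that they were highest at E11.5 while glia were highest at E12.5. The E12.5 order differed by kind of non-neural cell. The 30 pericyte-list cells were at 1550 (1383 to 1732), above glia. The 156 mesenchymal-list cells were at 967 (903 to 1034) and the 31 myeloid-list cells at 8.02.

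The part of free RNA in the neuronal level of *Mest* was not tested. Of the 186 *Mest* UMIs of E11.5 neurons, 83 came from the 4 cells in the non-neural cluster, and the level without them was 45 CPM (36.7 to 54.6). Isl1-positive cells in glia-like clusters remained, among them 8 cells of 1 such cluster at E11.5 and 33 of another at E12.5. The 21 and 134 neurons with the most *Mest* held 76.3% and 80.6% of its UMIs. The part of cells in glia-like clusters in the neuronal level was not tested. Double-positive cells lay between the classes for both genes, with *Mest* at 381 (348 to 415) and 381 (355 to 408) and *Cdkn1c* at 448 (413 to 485) and 655 (622 to 691).

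The non-coding RNAs were highest in non-neural cells at both stages. *H19*, which restrains growth, was at 129 (119 to 139) and 337 (324 to 350) in glia, at 72.6 (62.0 to 84.4) and 68.4 (63.1 to 74.0) in neurons and at 1004 (919 to 1095) and 1111 (1057 to 1167) in non-neural cells. *Meg3*, the maternally expressed RNA beside *Dlk1*, was at 184 (172 to 196) and 408 (394 to 422) in glia, at 317 (295 to 341) and 662 (645 to 679) in neurons and at 2469 (2334 to 2609) and 2011 (1938 to 2085) in non-neural cells. In E11.5 non-neural cells 6 of 57 cells held 54.3% of the *H19* UMIs, with up to 142 in 1 cell. Glia exceeded neurons in *H19*, and neurons exceeded glia in *Meg3*, at both stages.

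*Dlk1* encodes a membrane protein related to Notch ligands that holds back differentiation. It was at 912 (831 to 999) and 377 (345 to 410) in non-neural cells but at 6.32 (4.32 to 8.93) and 26.1 (22.6 to 29.9) in glia, and at 13.3 (9.04 to 18.9) and 10.6 (8.59 to 13.0) in neurons. Of the 31 *Dlk1* UMIs of E11.5 neurons, 28 came from the 4 cells in the non-neural cluster. Without these cells the neuronal level at E11.5 was 1.31 (0.270 to 3.83), from 3 UMIs, which lies under that of glia.

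The levels of the 3 other members follow. *Grb10*, an adaptor that dampens insulin and IGF receptor signals, was at 389 (372 to 407) and 377 (364 to 391) in glia, at 209 (191 to 228) and 185 (176 to 194) in neurons and at 230 (191 to 276) and 286 (259 to 316) in non-neural cells. *Peg3*, a zinc-finger protein, was at 19.6 (15.9 to 23.8) and 36.7 (32.5 to 41.2) in glia, at 6.44 (3.61 to 10.6) and 13.7 (11.4 to 16.3) in neurons and at 44.9 (28.5 to 67.4) and 117 (99.6 to 136) in non-neural cells. *Snrpn*, which encodes the spliceosomal protein SmN of neurons, was at 106 (97.1 to 115) and 97.1 (90.3 to 104), at 175 (158 to 193) and 227 (217 to 237), and at 60.5 (41.1 to 85.9) and 80.3 (66.3 to 96.4) in the same order. Glia were highest in *Grb10*, non-neural cells in *Peg3* and neurons in *Snrpn* at both stages. The intervals of neurons and non-neural cells overlapped for *Grb10* at E11.5, and those of glia and non-neural cells for *Snrpn* at E12.5.

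**Figure D1:**
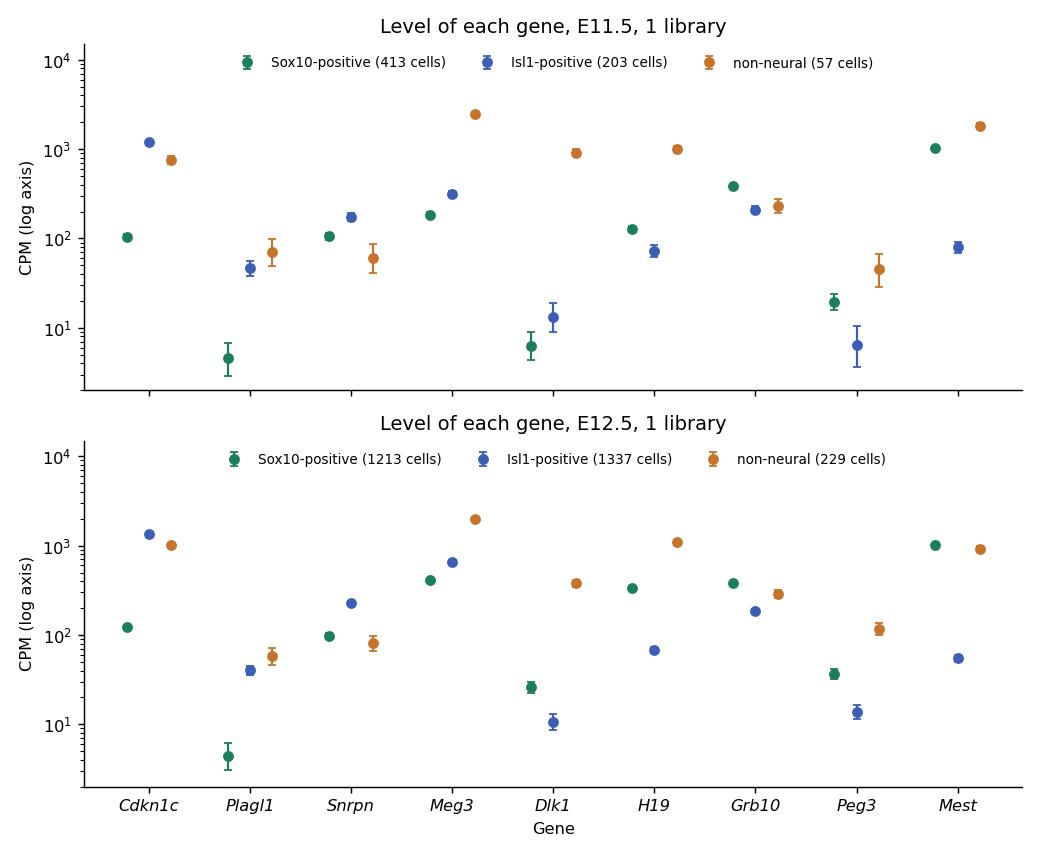
Levels of 9 members in CPM (log axis) by class, at E11.5 (top) and E12.5 (bottom), 1 library each; points are sums over the cells of a class and bars are exact 95% Poisson intervals, which cover counting error only. *Cdkn1c* stands at 1207 and 1348 in Isl1-positive cells against 104 and 123 in Sox10-positive cells, while *Mest* stands at 79.9 and 54.6 against 1041 and 1016.

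The same order was seen in shares of cells after each cell was thinned to 2000 UMIs. *Cdkn1c* was found in 72.9% (66.2 to 78.9, exact binomial) and 82.8% (80.6 to 84.8) of Isl1-positive cells and in 16% (12.6 to 19.9) and 14.5% (12.5 to 16.6) of Sox10-positive cells. *Mest* was found in 72.2% (67.6 to 76.4) and 70.0% (67.3 to 72.7) of Sox10-positive and in 11.3% (7.32 to 16.5) and 6.20% (4.94 to 7.65) of Isl1-positive cells. Without thinning these shares were 94.1% and 93.6% against 43.8% and 32.0% for *Cdkn1c*, and 94.4% and 87.0% against 29.6% and 17.2% for *Mest*. For scale, *Hbb-y*, which neither class should express, had a UMI in 10.4% and 3.96% of Sox10-positive and 10.8% and 2.84% of Isl1-positive cells without thinning. Median depths were 12526 and 6088 UMIs in Sox10-positive cells and 11595 and 6475 in Isl1-positive cells. Within glia *Cdkn1c* was unequally spread: the 42 of 413 and 122 of 1213 cells with the most UMIs of it held 63.3% and 68.7% of its UMIs, while for *Mest* as many cells held 32.9% and 35.4%.

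Neurons were first compared with glia. At E11.5, *Cdkn1c* was 11.6-fold (10.6 to 12.8) and *Plagl1* 10.3-fold (6.52 to 16.9) higher in Isl1-positive than in Sox10-positive cells. At E12.5 the ratios were 11.0 (10.3 to 11.7) and 8.97 (6.33 to 13.1). The glial level of *Plagl1* in these ratios lay under that of *Hbb-y*. *Mest* was lower by a ratio of 0.0767 (0.0659 to 0.0888) and 0.0537 (0.0490 to 0.0588), or 13.0-fold and 18.6-fold higher in glia. *Peg3* was lower too, at 0.329 (0.178 to 0.570) and 0.374 (0.300 to 0.463). Its neuronal level at E11.5, from 15 UMIs, was 6.44 CPM, under that of *Hbb-y* in the same cells (9.88).

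Some members were past 2-fold at 1 stage only. *Snrpn* stood at 1.65 (1.45 to 1.88) and then 2.34 (2.15 to 2.55), *H19* at 0.563 (0.472 to 0.667) and then 0.203 (0.186 to 0.222), and *Grb10* at 0.536 (0.485 to 0.592) and then 0.490 (0.461 to 0.520). *Meg3* was within 2-fold at both stages, at 1.73 (1.57 to 1.91) and 1.62 (1.55 to 1.69). *Dlk1*, with 63 UMIs in both classes at E11.5 and so not counted, had ratios of 2.11 (1.24 to 3.56) and 0.407 (0.316 to 0.521). Without the cells of non-neural clusters these were 0.207 (0.0406 to 0.663) and 0.302 (0.226 to 0.401), and *Mest* was at 0.0432 and 0.0461.

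In all, 2 of the 8 members with enough UMIs were higher and 2 lower at E11.5, where 8.40% of 7658 genes were higher and 14.5% lower. At E12.5, 3 of 9 were higher and 5 of 9 lower, where 11.6% of 10415 genes were higher and 18.5% lower. The median log2 ratio of the members tested was -0.05 and -1.03, against -0.12 and -0.11 over all genes.

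Neurons had fewer cycling cells than glia, so the comparison was repeated, after the values had been seen, in cells called non-cycling. These were 65 and 550 glia, with medians of 6125 and 4848 UMIs, and 141 and 1157 neurons, with medians of 11213 and 6298. The part of this difference in depth was not tested. *Cdkn1c* was higher in non-cycling neurons too, by 4.35-fold (3.67 to 5.19) at E11.5 and 8.26-fold (7.54 to 9.08) at E12.5, and *Mest* lower, at 0.0365 (0.0277 to 0.0473) and 0.0419 (0.0373 to 0.0469). *H19* was at 0.228 (0.171 to 0.305) and 0.150 (0.135 to 0.166), and *Grb10* at 0.324 (0.273 to 0.384) and 0.395 (0.365 to 0.428). At E11.5, 1 of 6 members with enough UMIs was higher and 3 lower, where 14.2% and 7.34% of all genes were. At E12.5, 3 of 9 were higher and 5 lower, where 12.9% and 15.5% of all genes were.

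**Figure D2:**
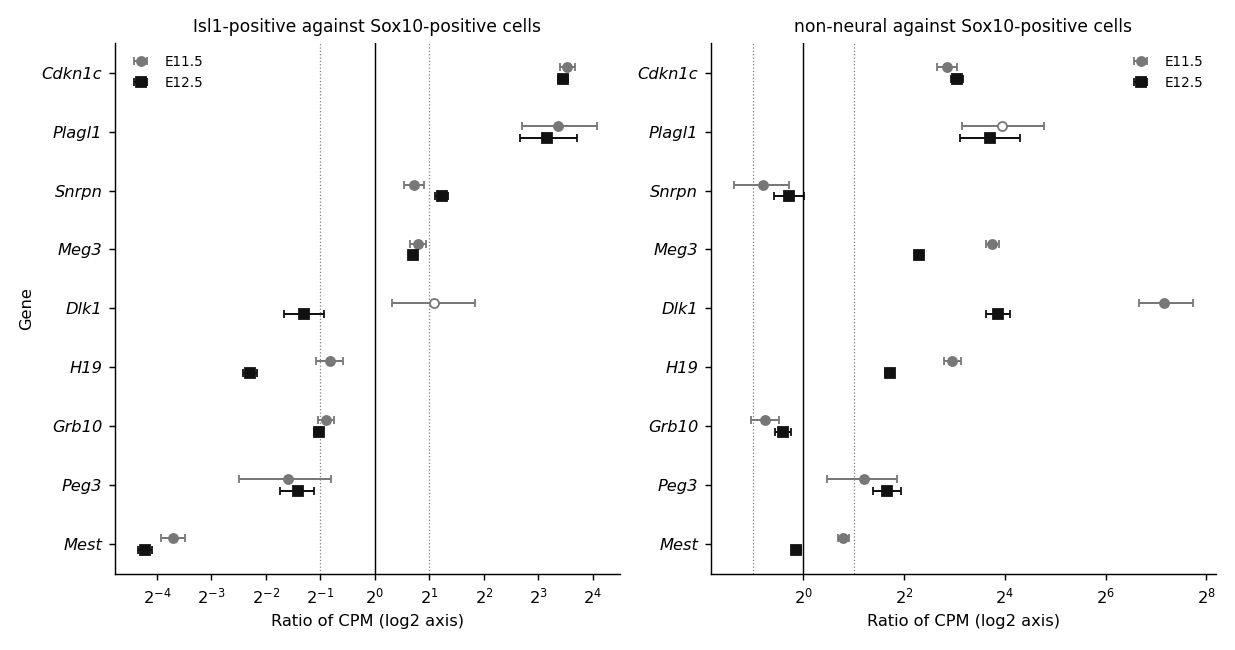
Ratio of levels (log2 axis) of Isl1-positive (left) and non-neural (right) to Sox10-positive cells at E11.5 (grey circles) and E12.5 (black squares), with exact 95% intervals for counting error; open symbols mark fewer than 100 UMIs in both classes and dotted lines a 2-fold ratio. The left panel spans *Mest* at 0.0537 to *Cdkn1c* at 11.6, and the right panel has *Dlk1* at 144 and 14.5.

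A list of 22 growth pathway genes, ligands, receptors and binding proteins of insulin-like growth factors and other cell-cycle inhibitors, was set beside the members. Of its 13 genes with enough UMIs at E11.5, 3 were higher in neurons and 1 lower, and of 15 at E12.5, 2 were higher and 3 lower. The kinase inhibitor genes *Cdkn1a* (p21), at 8.15 (5.61 to 12.1) and 4.92 (3.95 to 6.18), and *Cdkn2d* (p19Ink4d), at 2.57 (2.07 to 3.19) and 3.02 (2.61 to 3.52), were higher at both stages. *Cdkn1b* (p27Kip1) was within 2-fold, at 1.18 (0.853 to 1.62) and 1.23 (1.02 to 1.49), and *Cdkn2c* (p18Ink4c) was lower at E12.5, at 0.222 (0.141 to 0.339), and at 0.174 (0.0200 to 0.697) on 27 UMIs at E11.5. These last 2 fell outside the rule for named genes and were added after their values were seen. *Igfbp5*, which binds and stores IGFs, was lower, at 0.0957 (0.0552 to 0.155) and 0.170 (0.144 to 0.20). Without the cells of non-neural clusters it was at 0.0458 (0.0196 to 0.0912) and 0.128 (0.105 to 0.155). Of 35 other imprinted genes, 18 had enough UMIs at E11.5 with 0 past 2-fold, and of 20 at E12.5, 2 were higher and 4 lower.

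Non-neural cells were then compared with the same Sox10-positive cells, which both comparisons share. *Dlk1* was 144-fold (101 to 213) higher at E11.5 and 14.5-fold (12.3 to 17.1) at E12.5. Its glial level at E11.5, from 32 UMIs, lay under that of *Hbb-y* in the same cells. *Meg3* was 13.5-fold (12.3 to 14.7) and 4.93-fold (4.69 to 5.19) higher, *H19* 7.78-fold (6.92 to 8.75; 4.64 with each cell given the same weight) and 3.30-fold (3.10 to 3.51), and *Cdkn1c* 7.22-fold (6.31 to 8.25) and 8.30-fold (7.65 to 9.01). *Peg3* was 2.30-fold (1.39 to 3.64) and 3.18-fold (2.61 to 3.86) higher, where 9 of its 23 UMIs in E11.5 non-neural cells came from 5 mesenchymal-list cells. *Plagl1* was at 15.5 (8.92 to 27.3), from 59 UMIs, and at 13.0 (8.64 to 19.8), against glial levels under that of *Hbb-y*.

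*Grb10*, at 0.592 (0.488 to 0.713) and 0.759 (0.683 to 0.842), and *Snrpn*, at 0.572 (0.385 to 0.821) and 0.828 (0.674 to 1.01), were within 2-fold, as was *Mest*, at 1.74 (1.62 to 1.87) and 0.912 (0.860 to 0.967). In all, 5 of 8 members were higher and 0 lower at E11.5, where 8.21% of 6698 genes were higher and 14.1% lower. At E12.5, 6 of 9 were higher and 0 lower, where 8.35% of 8895 genes were higher and 10.4% lower. The median log2 ratio of the members tested was 2.03 and 1.72, against -0.16 and -0.05 over all genes.

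Non-neural cells differed by kind. At E12.5, *Dlk1* was at 1669 CPM in the 30 pericyte-list cells, at 218 in the 156 mesenchymal-list cells and at 0 in the 31 myeloid-list cells, whose other members ran from 0 to 20.0 CPM apart from *H19* at 76.2. The mesenchymal-list cells had *Peg3* at 176 and the pericyte-list cells at 34.7, while *Cdkn1c* (1348 and 1060) and *H19* (1416 and 1268) were nearer to each other. At E11.5 the 50 pericyte-list cells had *Dlk1* at 1116 and *Meg3* at 2855. The 249503 UMIs summed over the myeloid-list cells leave the members at 0 with wide intervals, and *H19* there was near its level in neurons.

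Of the growth list, 5 of 13 genes were higher in non-neural cells and 1 lower at E11.5, and 7 of 17 higher and 2 lower at E12.5. *Igf2r*, the receptor that clears IGF2 and is itself imprinted, was 9.41-fold (6.84 to 12.9) and 7.31-fold (5.45 to 9.84) higher. The binding protein genes *Igfbp2*, at 15.5 (12.8 to 18.9) and 11.3 (10.2 to 12.5), *Igfbp4*, at 5.14 (4.30 to 6.14) and 9.01 (8.10 to 10.0), and *Igfbp7*, at 520 (308 to 957) and 35.2 (25.7 to 49.4), were higher as well. The glial level of *Igfbp7* at E11.5, from 14 UMIs, was 2.77 CPM, under that of *Hbb-y* in the same cells (12.4). *Irs2*, an insulin receptor substrate, was lower, at 0.433 (0.156 to 0.967) and 0.330 (0.148 to 0.644).

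Of the other imprinted genes, 6 of 17 were higher and 2 lower at E11.5, and 4 of 20 higher and 2 lower at E12.5. *Rian*, a non-coding RNA of the *Dlk1* and *Meg3* region, was 9.57-fold (7.38 to 12.4) and 3.15-fold (2.64 to 3.74) higher. *Airn*, the antisense RNA of *Igf2r*, was at 6.96 (5.95 to 8.13) and 4.49 (3.90 to 5.17), and reads of this RNA and of the introns of *Igf2r* overlap on opposite strands. *Ndn* was at 2.01 (1.36 to 2.91) and 2.55 (2.12 to 3.06), and *Peg12* was lower, at 0.134 (0.0275 to 0.397) and 0.263 (0.142 to 0.449).

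Cycling cells were those with UMIs of 2 or more of *Mki67*, *Top2a*, *Cdk1*, *Ccnb1*, *Birc5* and *Cenpf*. They made up 84.3% (80.4 to 87.6) and 54.7% (51.8 to 57.5) of Sox10-positive, 30.5% (24.3 to 37.4) and 13.5% (11.7 to 15.4) of Isl1-positive and 49.1% (35.6 to 62.7) and 30.6% (24.7 to 37.0) of non-neural cells. After thinning to 2000 UMIs the shares were 48.7% and 37.3%, 14.3% and 7.67%, and 22.8% and 14.8%. Cycling Sox10-positive cells were deeper than non-cycling ones, with medians of 13263 and 6125 UMIs at E11.5 and 7467 and 4848 at E12.5. The part of depth in the following ratios was not tested.

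Within Sox10-positive cells, *Cdkn1c* was at 82.9 CPM (74.8 to 91.7) in cycling and 317 (267 to 373) in non-cycling cells at E11.5, a ratio of 0.261 (0.215 to 0.319). At E12.5 it was at 95.3 (87.0 to 104) and 175 (160 to 192), a ratio of 0.544 (0.478 to 0.619). *H19* was at 117 (108 to 128) and 247 (203 to 297) at E11.5, a ratio of 0.476 (0.388 to 0.589), and at 0.621 (0.575 to 0.671) at E12.5. These 2 were the members past 2-fold, 2 of 6 lower and 0 higher at E11.5, where 0.998% of 6314 genes were lower and 4.05% higher. The interval of *H19* spans 2-fold, and its ratio was within 2-fold, at up to 0.637, with all barcodes, clusters in place of the gate, equal cell weights, or 1 or 3 cycling genes asked for. At E12.5 none of 8 was past 2-fold in either direction, where 0.482% of 8099 genes were lower and 2.59% higher.

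*Mest* was within 2-fold in cycling against non-cycling glia, with ratios of 0.904 (0.826 to 0.992) and 0.917 (0.875 to 0.960), and *Grb10* was at 0.643 (0.564 to 0.735) and 0.815 (0.757 to 0.878). *Meg3* was at 0.855 (0.692 to 1.07) and 0.847 (0.788 to 0.910), and *Snrpn* at 0.980 (0.729 to 1.34) and 0.881 (0.759 to 1.02). Of the growth list, 2 of 10 genes were lower at E11.5 and 2 of 13 higher at E12.5, and none of the other imprinted genes (17 and 19) was past 2-fold.

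The same comparison was added for the other classes after the values had been seen. In Isl1-positive cells *Cdkn1c* was lower in cycling cells at 0.619 (0.566 to 0.676) and 0.573 (0.540 to 0.608), and *Meg3* at 0.582 (0.486 to 0.694) and 0.486 (0.443 to 0.532). *Mest* was 3.80-fold (2.79 to 5.22) and 2.33-fold (1.91 to 2.82) and *Plagl1* 1.93-fold (1.30 to 2.86) and 2.52-fold (2.01 to 3.15) higher. Past 2-fold were 1 of 7 members higher and 0 lower at E11.5 (3.21% and 4.13% of all genes), and 2 of 8 higher and 1 lower at E12.5 (4.10% and 4.77% of all genes). Of the 121 *Mest* UMIs of cycling neurons at E11.5, 64 came from 2 cells in the non-neural cluster. Without the cells of such clusters *Mest* was at 2.61 (1.74 to 3.93) and 2.50 (2.02 to 3.07), *Plagl1* at 1.75 (1.15 to 2.65) and 2.62 (2.08 to 3.28) and *Cdkn1c* at 0.614 (0.561 to 0.672) and 0.577 (0.543 to 0.613). Isl1-positive cells in glia-like clusters remained in these ratios, and their part was not tested. *Meg3* was then at 0.371 (0.295 to 0.462) and 0.501 (0.456 to 0.550), and so past 2-fold at E11.5 and just within it at E12.5, the reverse of the comparison with all cells.

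In non-neural cells *Cdkn1c* was at 1.06 (0.861 to 1.31) and 0.699 (0.623 to 0.782), and none of 6 and 8 members was past 2-fold in either direction. Of all genes, 2.70% and 2.77% were higher and 0.514% and 1.65% lower there. The ratio of *Cdkn1c* was therefore under 1 in both neural classes at both stages. In non-neural cells it was under 1 at E12.5, while the E11.5 interval, from 28 and 29 cells, held 1. Kinds of non-neural cell differed in cycling share at E12.5. Myeloid-list cells were 48.4% cycling with *Cdkn1c* at 8.02 CPM, mesenchymal-list cells 28.2% with 1348 and pericyte-list cells 26.7% with 1060. The part of this makeup in the ratio was not tested.

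**Figure D3:**
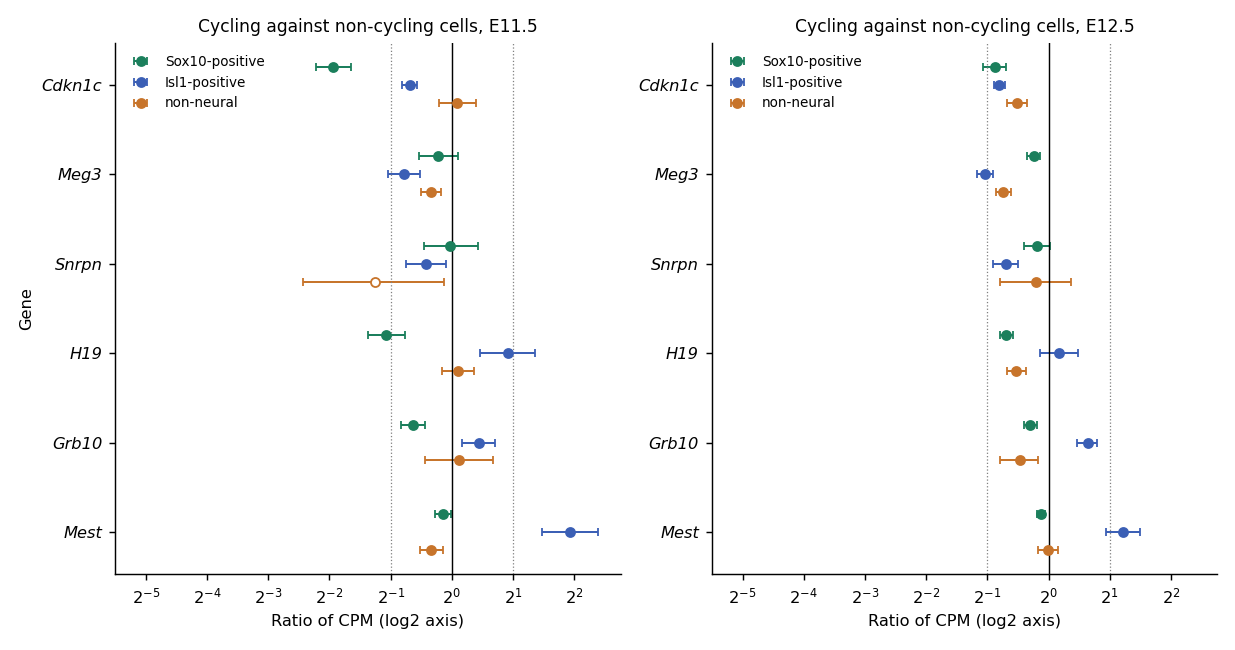
Ratio of the level in cycling to that in non-cycling cells (log2 axis) for 6 members in each class at E11.5 (left) and E12.5 (right), with exact 95% intervals for counting error; the open symbol marks fewer than 100 UMIs and dotted lines a 2-fold ratio. *Cdkn1c* in Sox10-positive cells lies at 0.261 and 0.544, and *Mest* in Isl1-positive cells at 3.80 and 2.33 (2.61 and 2.50 without the cells of non-neural clusters, which the plot includes).

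Between the stages, 3 members were higher in Sox10-positive cells at E12.5 than at E11.5: *Dlk1* by 4.12-fold (2.83 to 6.19), *H19* by 2.61-fold (2.39 to 2.85) and *Meg3* by 2.22-fold (2.06 to 2.39). These are ratios of sums over all glia, and the part of their makeup was not tested. At E12.5, 122 of 1213 glia held 94.1% of the *Dlk1* UMIs. The glial level of *Dlk1* at E11.5, from 32 UMIs, was 6.32 CPM, under that of *Hbb-y* in the same cells (12.4). The part of free RNA in it was not tested. *H19* was at 91.9 and 107 CPM in glia with *Neurog1* and at 138 and 359 in those without. *Peg3* was at 1.87 (1.49 to 2.38). *Mest*, at 0.976 (0.943 to 1.01), *Grb10*, at 0.970 (0.916 to 1.03), and *Snrpn*, at 0.917 (0.820 to 1.03), had intervals that hold 1. *Cdkn1c* was at 1.18 (1.06 to 1.32), but at 1.08 (0.968 to 1.21) without the 13 cells in non-neural clusters. In all, 3 of 8 members were higher and 0 lower, where 4.71% of 9430 genes were higher and 0.891% lower.

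The sum of the mesenchymal-list markers moved alongside in these glia. It went from 199 (187 to 212) to 500 (485 to 516) CPM, with 7 and 9 of 10 markers found, and *Col1a1* from 1.19 to 30.8. *Twist1* was found at E11.5 only. The collagen genes *Col1a2*, at 133 and 265 CPM, and *Col3a1*, at 62.4 and 166, had UMIs in 60.3% and 42.1% of these glia at E11.5. In non-neural cells *Col1a2* was at 131 and 694. The source of the collagen RNA in glia was not tested. Myeloid markers came to 7.51 and 11.9, pericyte markers to 44.8 and 44.4. The part of mesenchymal RNA in the 3 ratios was not tested. Without the 13 cells in non-neural clusters the ratios were 3.92 (2.69 to 5.90) for *Dlk1*, 2.58 (2.37 to 2.82) for *H19* and 2.13 (1.98 to 2.30) for *Meg3*. Any free RNA in the remaining glia is still in these values.

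In Isl1-positive cells *Meg3*, at 2.09 (1.93 to 2.25), and *Peg3*, at 2.13 (1.24 to 3.92), were higher at E12.5, 2 of 9 members with 0 lower, where 4.25% of 8712 genes were higher and 1.23% lower. The *Peg3* level at E11.5, from 15 UMIs, lay under that of *Hbb-y* in the same cells. *Cdkn1c* was at 1.12 (1.07 to 1.16), *H19* at 0.942 (0.794 to 1.12) and *Plagl1* at 0.857 (0.690 to 1.07). *Mest* was at 0.683 (0.576 to 0.813) and *Dlk1* at 0.797 (0.527 to 1.24). Without the cells of non-neural clusters *Mest* was at 1.05 (0.841 to 1.31), *Dlk1* at 5.73 (1.88 to 28.5), with 3 UMIs at E11.5, and *Meg3* at 2.29 (2.11 to 2.49). Haemoglobin RNA also differed in these cells, with *Hbb-y* at 9.88 and 316 CPM, the latter in 38 of 1337 cells.

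In non-neural cells *Peg3* was higher at E12.5, at 2.60 (1.67 to 4.21), and *Dlk1* lower, at 0.413 (0.364 to 0.468), 1 of 9 members in each direction, where 9.36% of 3313 genes were higher and 5.49% lower. *Mest* was at 0.511 (0.470 to 0.557). The makeup of this class changed between the libraries, and in pericyte-list cells alone, a comparison added after the values were seen, *Dlk1* was at 1.5 (1.30 to 1.72), *H19* at 1.70 (1.43 to 2.01), *Meg3* at 1.05 (0.953 to 1.16) and *Mest* at 0.820 (0.717 to 0.936). None of the 6 members with enough UMIs was past 2-fold there in either direction, where 2.98% of 972 genes were higher and 4.94% lower. *Peg3* was not among these 6, with 12 and 7 UMIs in pericyte-list cells, or 28.7 CPM (14.9 to 50.2) and 34.7 (13.9 to 71.4). The mesenchymal-list cells, 5 and 156 in number, had it at 195 (89.1 to 370) and 176 (149 to 206).

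Of the growth list, 2 of 15 genes were higher between the stages in Sox10-positive cells and 0 lower, 1 of 14 higher and 1 lower in Isl1-positive cells, and 2 of 10 higher and 2 lower in non-neural cells. *Igfbp5* was higher in Isl1-positive, at 2.71 (1.65 to 4.75; 3.85 without the cells of non-neural clusters), and non-neural cells, at 8.70 (6.24 to 12.5). *Igfbp7* was lower in both, at 0.103 (0.0650 to 0.159) and 0.141 (0.122 to 0.161), but 68 of its 75 UMIs in E11.5 neurons came from the 4 cells in the non-neural cluster, and without those clusters the ratio in neurons was 0.366 (0.126 to 1.13). Of the other imprinted genes, 1 of 19 was higher in Sox10-positive, 0 of 19 past 2-fold in Isl1-positive, and 2 of 10 lower in non-neural cells.

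**Figure D4:**
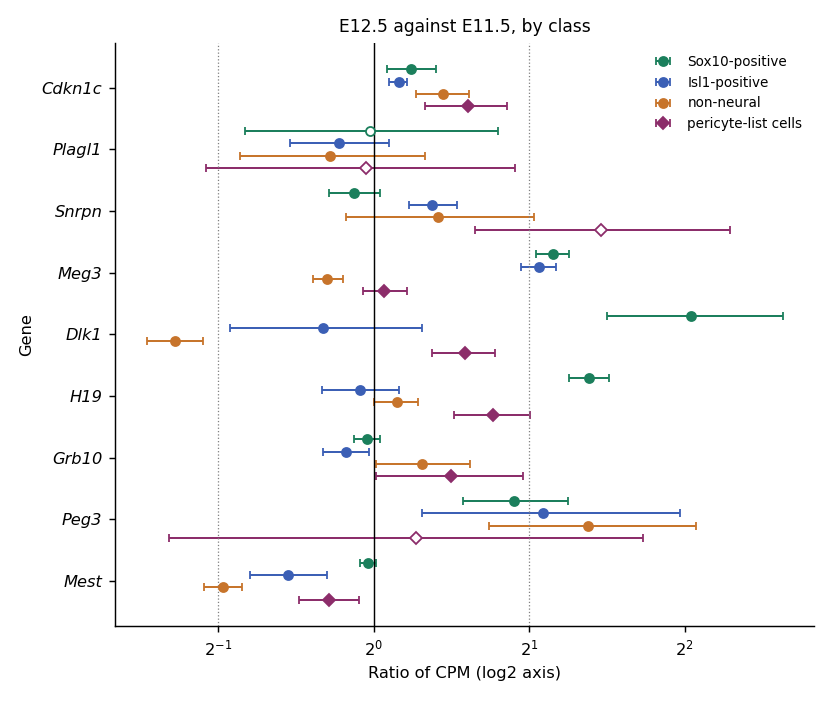
Ratio of the level at E12.5 to that at E11.5 (log2 axis) for 9 members in Sox10-positive, Isl1-positive, non-neural and pericyte-list cells, with exact 95% intervals for counting error; open symbols mark fewer than 100 UMIs and dotted lines a 2-fold ratio. *Dlk1* lies at 4.12 in Sox10-positive cells, where its E11.5 level lay under that of *Hbb-y*, at 0.413 in non-neural and at 1.5 in pericyte-list cells.

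Glia were not uniform in these genes. Cells were clustered within each library, which gave 11 clusters at E11.5 and 16 at E12.5. Over the glia-like clusters (6 and 7), *Cdkn1c* ran from 27.9 to 243 CPM at E11.5 and from 20.0 to 211 at E12.5, and *Mest* from 295 to 1546 and from 122 to 1506. *H19* ran from 31.5 to 401 and from 37.0 to 649, and *Grb10* from 224 to 625 and from 158 to 651. *Snrpn* had the smaller range of 65.1 to 117 and 70.9 to 143. The members were kept out of the genes used to cluster, but the clusters come from the same cells, so these ranges are descriptions. The cluster with *H19* at 401 and *Dlk1* at 27.4 was shallow, with a median of 2783 UMIs.

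The glia-like clusters with the lowest *Mest* were led by *Cck* and *Dll1* at both stages, and had *Plagl1* at 13.8 and 31.3 and *Cdkn1c* at 243 and 208. *Dll1*, a Notch ligand, is known from cells that begin to become neurons. Of the cells in these clusters, 44 of 91 and 91 of 233 were Sox10-positive and 35 and 56 double-positive. The clusters with the lowest *Cdkn1c* were led by genes that included *Prss56*, a marker of boundary cap cells, at E11.5 and *Mdga2* at both stages.

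Glia were also split by single markers. Sox10-positive cells with a *Prss56* UMI (116 of 413 and 375 of 1213) had *Cdkn1c* at 41.3 and 46.5 CPM, against 133 and 156 in those without. Their cycling shares were 91.4% against 81.5% at E11.5 and 50.4% against 56.6% at E12.5, and *Mest* was at 1119 against 1004 and 1013 against 1017. Sox10-positive cells with *Neurog1*, the factor that starts the sensory neuron programme (70 and 87 cells), had *Mest* at 598 and 433, against 1143 and 1074 in those without, and *H19* at 91.9 and 107, against 138 and 359.

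Among Isl1-positive cells, those with *Neurog1* (139 of 203 and 415 of 1337) had *Plagl1* at 53.9 and 66.1 CPM against 29.5 and 28.5, *Meg3* at 263 and 507 against 450 and 732, and *Snrpn* at 159 and 163 against 214 and 256. Of the 739 *Meg3* UMIs of E11.5 Isl1-positive cells, 99 came from the 4 cells in the non-neural cluster. The split by *Neurog1* was not repeated without them. *Neurog1* is expressed early in sensory neurons and then lost. The neuron-like cluster with the most cycling cells (100% and 96.6%), led by *Insm1* and *Dll1*, had the highest *Plagl1* (96.5 and 106) and *Grb10* (264 and 328) and the lowest *Cdkn1c* (696 and 712) and *Snrpn* (78.3 and 92.3) among neuron-like clusters. *Plagl1* was at 7.55 and 1.74 in the neuron-like clusters where it was lowest, and these had the highest *Snrpn*, at 314 and 372.

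**Figure D5:**
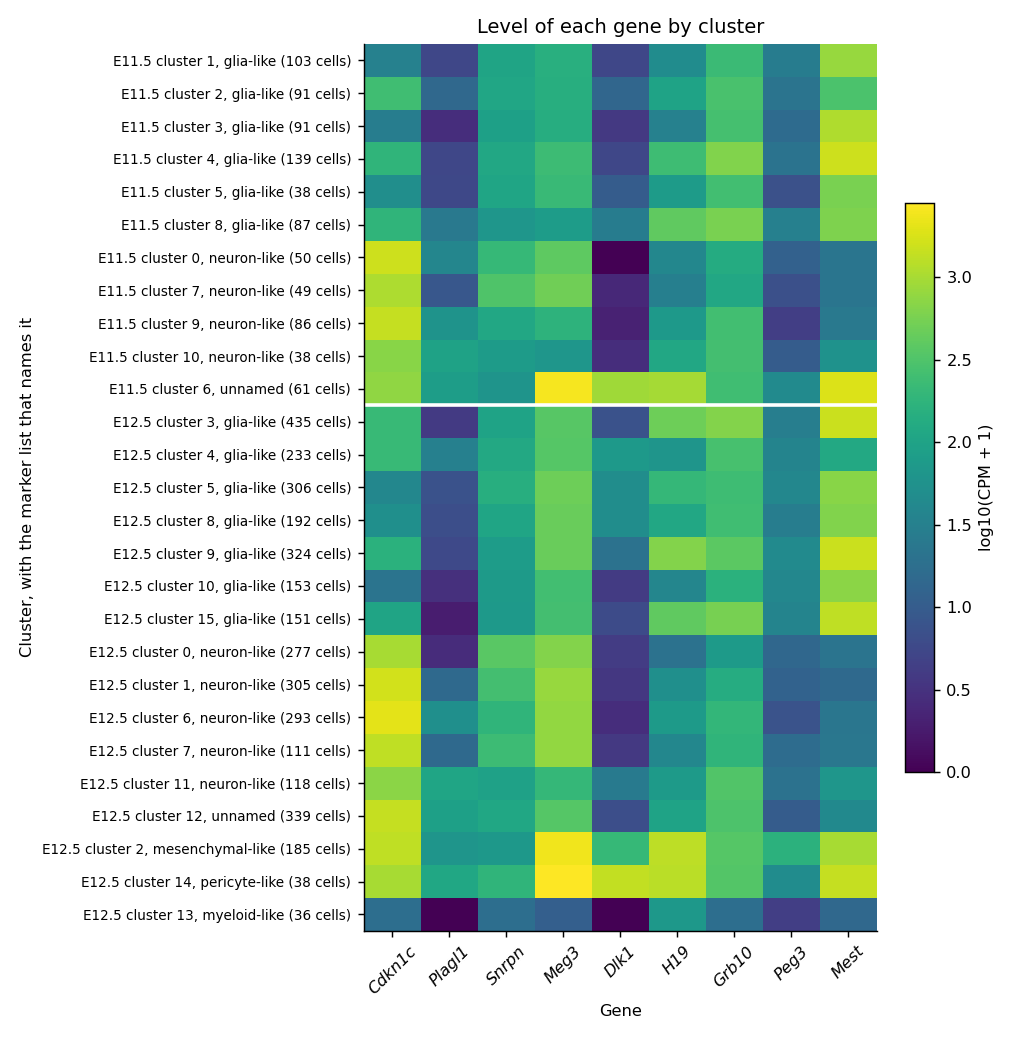
Levels of 9 members as log10(CPM + 1), by colour, in the 11 clusters of E11.5 and the 16 of E12.5 (rows, split by the white line), with the marker list that names each cluster and its number of cells. *Cdkn1c* is bright and *Mest* dark in the neuron-like rows, from 696 to 2046 and from 14.2 to 63.4 CPM, and in the myeloid-like row *H19* is highest, at 67.4.

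Over the 27 clusters, whose levels share library, depth and the cells used to build them, the correlation of log2 levels was highest, among the 9 members other than *Igf2*, for *Peg3* and *Mest* (Pearson r = 0.73), then *Cdkn1c* and *Plagl1* (0.72), *H19* and *Dlk1* (0.72), and *Dlk1* and *Peg3* (0.72). It was lowest for *Cdkn1c* and *Mest* (-0.49). Among 8459 genes with at least 100 UMIs in each library, the pattern of *Mest* was most like those of *Arhgef40* (0.96), *S1pr2* (0.96) and *Id3* (0.95), and that of *Meg3* most like *Rian* (0.93), *Dtx3* (0.91) and *Gm9844* (0.88). *Snrpn* was most like *4931428F04Rik* (0.91), *Uchl1* (0.90) and *Tuba1a* (0.89), and *Cdkn1c* most like *Serping1* (0.89), *H13* (0.89) and *Maml3* (0.88).

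For the remaining members the highest values were 0.84 to 0.87. *Grb10* was most like *Amotl1* (0.87), *Tcf7l1* (0.87) and *Pygo1* (0.87), *Plagl1* most like *Dock6* (0.87), *Pde3a* (0.86) and *Tspan9* (0.84), and *Dlk1* most like *Itga1* (0.86), *Uaca* (0.85) and *Pde5a* (0.84). *H19* was most like *Sipa1l2* (0.84), *Col3a1* (0.83) and *Prxl2c* (0.82), and *Peg3* most like *Sgce* (0.84), *Slc2a13* (0.83) and *Dnajc10* (0.83). *Rian* and *Sgce* are themselves imprinted.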

How the data were processed

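The members and gene lists were chosen with earlier results of these data known, and the genes named were all members, plus those of 2 fixed lists past 2-fold in the same direction at both stages (for stages, in at least 2 of 3 classes) and the 3 genes most like each member. The authors deposited raw UMI counts per gene and barcode for 2 libraries, made with 10x 3′ V2 chemistry and Cell Ranger (7.0 in the submitters' processing notes, 7.0.1 in the matrix header) on mm39. Whether intronic reads were counted is not given in the sources used here. Other experiments of the study were not analysed here, and some items are not reported here.

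Barcodes with over 10% mitochondrial UMIs, under 2000 (E11.5) or 1000 (E12.5) UMIs, or a Scrublet score of 0.2 or more (7 and 67 cells) were removed, with scanpy 1.11.5 in Python 3.11.15. UMIs were summed by class and scaled to CPM, with exact intervals from scipy 1.17.1. For shares of cells, cells were thinned to 2000 UMIs, which left out 38 Sox10-positive, 46 Isl1-positive and 13 non-neural cells, all at E12.5. Clusters were made within each library (3000 variable genes without the members and lists, 30 components, 15 neighbours, Leiden resolution 1). In counts simulated for Isl1-positive against Sox10-positive cells at E11.5 (7587 genes), 95.7% of intervals held the true ratio. These counts were drawn from a Poisson distribution, which the intervals assume. The simulation checked the calculation only and left out the clumping of UMIs in single cells. Gene positions came from GENCODE M39, where 32629 of 33207 gene IDs matched. Alternatives were other filters, gates, cell weights, cycling calls, fold limits and UMI minimums.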

Additional observations from a re-analysis of the deposited data

Results flagged for a closer look

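In 7 of 90 pairs of ratios, the ratios lay on opposite sides of 1 with both counting intervals clear of 1. These differences were not tested, since each stage had 1 library. *Dlk1* in Isl1-positive against Sox10-positive cells was at 2.11 at E11.5 and 0.407 at E12.5, where 28 of 31 UMIs of E11.5 neurons came from 4 cells, and without the cells of non-neural clusters the ratios were 0.207 and 0.302. *Mest* in non-neural against Sox10-positive cells was at 1.74 and 0.912, while the 30 pericyte-list cells at E12.5 were at 1550 CPM against 1016 in Sox10-positive cells. *Dlk1* in cycling against non-cycling non-neural cells was at 1.65 at E11.5 and 0.698 at E12.5. Myeloid-list cells at E12.5, with *Dlk1* at 0 CPM, were 48.4% cycling, against 28.2% of mesenchymal-list and 26.7% of pericyte-list cells.

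Between the stages, *Dlk1* was at 4.12 in Sox10-positive and 0.413 in non-neural cells. Its level in Sox10-positive cells at E11.5 lay under that of *Hbb-y*. *Meg3* was at 2.22 in Sox10-positive and 2.09 in Isl1-positive cells and at 0.814 in non-neural cells. *Grb10* was at 0.885 in Isl1-positive and 1.24 in non-neural cells. The non-neural class held mainly pericyte-list cells at E11.5 and mesenchymal-list cells at E12.5. The part of this makeup was not tested. In pericyte-list cells alone *Dlk1* was at 1.5 and *Meg3* at 1.05.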

How the results depend on the processing

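Of 703 values of 74 member ratios under other settings, 626 lay within the main counting interval and 77 outside it. Of these, 0 turned from one called direction to the other, but only ratios called higher or lower in the main setting could. *Dlk1* between stages in Isl1-positive cells, with a main interval of 0.527 to 1.24, could not. It was at 3.79 with a gate of 2 UMIs and 4.92 with clusters. Without cells of non-neural clusters it was at 5.73, with 3 UMIs at E11.5. *Dlk1* in Isl1-positive against Sox10-positive cells at E11.5, at 2.11 on under 100 UMIs, was not among the 74. It was at 0.207 without the cells of such clusters. Of 190 counts of members past the limit, which include those at a limit of 1.5-fold, 171 were within 1.5 times the main count. A limit of 1.5-fold gave 4 higher and 4 lower in Isl1-positive against Sox10-positive cells at E11.5 (2 and 2 at 2-fold). It gave 2 lower in non-neural against Sox10-positive cells at E11.5 (0 at 2-fold) and 2 lower in cycling Sox10-positive cells at E12.5 (0 at 2-fold). It also gave 2 lower between stages in non-neural cells (1 at 2-fold), where equal cell weights and marker panels also gave 2. The share of all genes past 1.5-fold was not counted, so the 1.5-fold counts have no background beside them. The 2 members higher between stages in Isl1-positive cells were 1 with all barcodes, with no doublet filter, with marker panels, with clusters in place of the gate, and without mitochondrial, ribosomal protein and haemoglobin genes. The 2 lower in cycling Sox10-positive cells at E11.5 were 1 with all barcodes, clusters, equal cell weights, and 1 or 3 cycling genes asked for, with *H19* within 2-fold in each. The 0 lower at E12.5 was 1 with 3 cycling genes or a gate of 2 UMIs. The causes were not tested.

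*Mest* in Isl1-positive against Sox10-positive cells, at 0.0767 and 0.0537, was at 0.0273 and 0.0250 with a gate of 2 UMIs and at 0.0307 and 0.0257 with clusters. *Plagl1* at E12.5 was at 3.92 with clusters (8.97 by the gate). Clusters gave no value for non-neural cells at E11.5, whose cluster had no name. An E12.5 cluster of 339 cells led by haemoglobin genes, 248 of them Isl1-positive cells, also had no name. It was left out of this setting and had *Plagl1* at 91.5 CPM. Shares of cells depended on depth, and 9 of 60 without thinning lay within the interval of the thinned share. *Igf2* had 7 and 19 UMIs in kept cells, and the cause was not tested. No paired analysis was possible because each stage had 1 library.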
